A study of Mus musculus with 2 samples.

Results

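The mRNAs of 9 genes of water and ion transport were followed through the epithelium of the adult mouse mammary gland. They comprised the water channels Aqp1, Aqp3 and Aqp5, the sodium pump beta subunits Atp1b1 and Atp1b3, the pump regulators Fxyd2 and Fxyd3, the sodium channel subunit Scnn1a and the chloride channel Cftr. The 9 genes were picked by symbol among the 27998 genes of the count tables, and 8 of them had at least 1 UMI (unique molecular identifier, the tag that counts 1 captured mRNA once). Aqp5 was the most unevenly placed of the water channels, with 17.3 CPM (counts of the gene for each 1000000 UMIs of the cell class) in basal cells, 340.5 in luminal progenitor (LP) cells and 1161 in mature luminal (ML) cells. Both pump beta genes were found in every class, but Atp1b1 was higher in the luminal classes and Atp1b3 higher in basal cells. Fxyd2 was mostly in ML cells, Fxyd3 was highest in LP cells, and no UMI of Cftr was found.

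Water crosses epithelia by osmosis through aquaporins, following sodium and chloride that pumps and channels move. The sodium pump, an alpha and a beta subunit with an optional FXYD protein, expels sodium from the cell, and the epithelial sodium channel lets it in at the apical side. In the mammary gland the luminal layer lines the ducts and alveoli and meets the lumen, whereas the basal layer is contractile and meets the stroma. The luminal layer holds LP cells, which can give rise to milk-producing alveolar cells, and ML cells, many of which carry hormone receptors.

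The 2 libraries analysed were each a droplet capture of single cells from FVB/NJ adult glands. One held 3302 total epithelial cells, sorted as lineage-negative and CD24+, and the other held 4771 basal cells, sorted as lineage-negative, CD29hi and CD24+. The labels name no treatment and no engineered allele, 8 mice served the series as a whole, and cells of different mice were not told apart within a library. The total epithelial library had 802 to 12967 UMIs per cell with a median of 2426, and the sorted basal library had 137 to 1946 with a median of 487.

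Cells of the total epithelium were assigned to classes by genes other than the 9 described. A cell was basal with 10 or more summed UMIs of Krt5, Krt14 and Acta2, and ML with 10 or more of Prlr, Stc2 and Gpx3. Any other cell with 3 or more UMIs of Krt8, Krt18 and Krt19 was LP. This gave 1280 basal, 766 LP and 1133 ML cells, while 26 cells that met both the basal and the ML rule and 97 cells that met none were kept apart. The median cell had 1820 UMIs in the basal class, 2484 in the LP class and 3403 in the ML class, so shares of cells with a UMI are also given after thinning to 1000 UMIs per cell. Shallower cells were left out of the thinned shares, which cover 1228 basal, 725 LP, 1111 ML and 78 unclassified cells.

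The class names were checked against marker genes that the rule did not use. Summed basal markers (Trp63, Myh11 and 7 others) reached 23340 CPM in basal cells, 185.8 in LP cells and 98.5 in ML cells. LP markers (Elf5, Kit, Csn3 and 5 others) reached 18560 in LP cells, 1833 in ML cells and 2241 in basal cells, where Lcn2 gave most of them. ML markers (Esr1, Pgr and 5 others) reached 5171 in ML cells against 478.1 in LP cells. The LP class was mixed at its edge, as 151 of its 766 cells had no UMI of the milk protein gene Csn3, and 90 cells lay just under the ML threshold, with 5 to 9 UMIs, against 122 just above it, with 10 to 14. The 5 immune markers summed to 44.5 CPM in basal cells, 4.17 in LP cells, 1.69 in ML cells and 450.1 in unclassified cells, with Ptprc, the pan-leukocyte gene, at 0 in each and Cd74, an antigen presentation gene, giving 109 of the UMIs in basal cells. The 6 endothelial markers summed to 4.36 to 6.02 CPM in the 3 classes. The 6 fibroblast markers summed to 1419 CPM in ML cells, of which Dcn gave 1281, against 83.4 in LP and 358 in basal cells.

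With 1 library per sort, no test between replicates exists. Levels below are CPM of the summed UMIs of a class, with exact Poisson 95% intervals, and shares of cells carry exact binomial 95% intervals. All intervals cover counting error only and not the spread between cells, mice or captures. They are too narrow for genes whose UMIs sit in few cells. Levels are compared between classes and not between genes, since 3' capture differs from gene to gene. Gene positions are those of GENCODE on GRCm38.

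Aqp5, the apical water channel of salivary, lacrimal and airway glands, had 46 UMIs in basal cells, 735 in LP cells and 4798 in ML cells. The levels were 17.3 (12.7 to 23.1), 340.5 (316.3 to 366.0) and 1161 (1128 to 1194) CPM, and no 2 of the intervals met. Aqp5 was detected in 2.03% of basal cells, 44.5% (41.0 to 48.1) of LP cells and 79.0% (76.5 to 81.3) of ML cells. Among the 97 cells outside every class 1 cell (1.03%) had a single UMI. Thinned to 1000 UMIs per cell, the shares were 0.651% (0.282 to 1.28) in basal cells, 24.7% (21.6 to 28) in LP and 54.4% (51.4 to 57.3) in ML cells, against 1.28% (0.0324 to 6.94) in the cells outside every class. The basal share overlapped that of unclassified cells, of which 1 cell had a UMI, and how much of it was free RNA was not tested. The order of the 3 classes was the same at equal depth.

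Aqp3, which passes glycerol as well as water and lies in the basolateral membrane of many epithelia, followed the same order at a lower count. It had 14 UMIs in basal cells, 46 in LP cells and 258 in ML cells, or 5.28 (2.89 to 8.86), 21.3 (15.6 to 28.4) and 62.4 (55 to 70.5) CPM. These intervals did not overlap. The thinned shares of cells were 0.407% (0.132 to 0.948), 1.52% (0.760 to 2.70) and 4.77% (3.59 to 6.19), so that the basal and LP shares overlapped and the ML share stood above both. No Aqp3 UMI was seen in the 97 unclassified cells, which allows up to 23.1 CPM by the Poisson interval.

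Aqp1, the water channel of capillary endothelium and red cells, followed another order. It lies on chromosome 6 at 55336432 to 55348555. Its UMIs came from few cells, with 7 UMIs in 3 basal cells, 20 in 9 LP cells, 7 in 3 ML cells and 11 in 3 unclassified cells. The unclassified cells had the highest level, 68.8 (34.3 to 123.0) CPM against 9.27 (5.66 to 14.3) in LP, 2.64 (1.06 to 5.44) in basal and 1.69 (0.681 to 3.49) in ML cells. All 3 unclassified cells with Aqp1 also had endothelial marker UMIs, 23 in sum, and the unclassified cells as a whole had 743.9 CPM of endothelial markers. In contrast, none of the 9 Aqp1-bearing LP cells had an endothelial UMI, and all 9 had UMIs of the LP markers. Among these 9 cells 1 had a fibroblast UMI and 2 had UMIs of the 5 Schwann cell markers, 4 in sum. Sox10, a gene of that list, was found in 11.1% of all LP cells. Of the 3 Aqp1-bearing ML cells 1 had 3 endothelial UMIs and 2 had fibroblast UMIs, 26 in sum. All 3 of these ML cells also had UMIs of the ML markers, 51 in sum, and of the LP markers, 89 in sum. The 3 basal cells all had UMIs of the basal markers, 53 in sum, and of these cells 1 had fibroblast and 1 pericyte UMIs, 3 each. The sort removes cells with the endothelial protein CD31, and whether endothelial RNA contributed to the remaining counts was not tested.

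**Figure D1:**
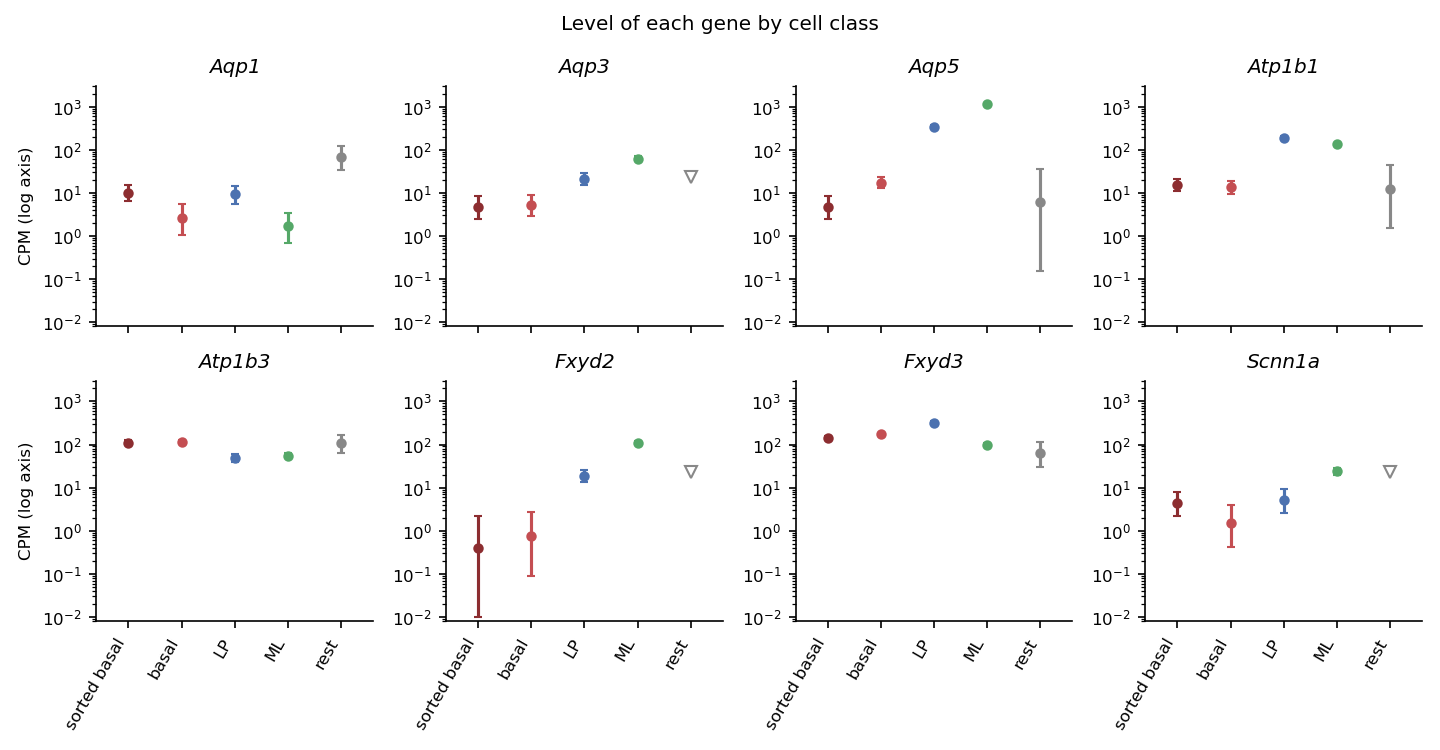
Level of 8 of the 9 genes, in CPM on a log axis, in the sorted basal library and in the basal, LP, ML and unclassified (rest) cells of the total epithelium; points are class sums, bars are exact Poisson 95% intervals, and open triangles are upper limits where no UMI was counted. Aqp5 climbs from 17.3 in basal to 1161 in ML cells, Atp1b3 runs the other way, from 115.0 to 54.4, and Aqp1 is highest in the unclassified cells at 68.8.

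The promoters of Aqp3 and Aqp5 are shown because both genes rose from basal to ML cells. Each window holds the 250 bases before and the 50 after the RefSeq transcription start, 5′ to 3′ on the gene's strand in GRCm38.p6. Aqp3 lies on chromosome 4 at 41092722 to 41098183 on the minus strand with its window at chr4:41098134-41098433, and Aqp5 on chromosome 15 at 99590782 to 99594829 on the plus strand with its window at chr15:99590778-99591077. The GENCODE start of Aqp5 lies upstream of the RefSeq start, so that nearly all of its window falls inside the GENCODE gene. Capitals mark the TATA box TATAAA, the GC box GGGCGG and the CCAAT box, spelled by its letters, on either strand.
Aqp3: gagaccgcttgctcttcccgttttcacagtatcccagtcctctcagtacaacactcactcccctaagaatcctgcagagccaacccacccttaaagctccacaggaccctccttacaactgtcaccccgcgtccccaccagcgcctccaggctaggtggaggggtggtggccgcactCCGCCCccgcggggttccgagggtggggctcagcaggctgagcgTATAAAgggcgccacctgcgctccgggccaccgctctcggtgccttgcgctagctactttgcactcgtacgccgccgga
Aqp5: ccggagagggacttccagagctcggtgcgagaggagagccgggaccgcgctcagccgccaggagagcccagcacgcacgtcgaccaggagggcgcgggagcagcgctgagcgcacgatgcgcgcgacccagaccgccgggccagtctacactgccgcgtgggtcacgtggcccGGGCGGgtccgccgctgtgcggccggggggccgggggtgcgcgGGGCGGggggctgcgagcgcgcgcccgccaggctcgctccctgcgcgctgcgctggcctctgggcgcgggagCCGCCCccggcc
Aqp3 had 1 TATAAA, found in 13.6% of all 32851 mouse promoter windows, and 1 GGGCGG, found in 35.7%. Aqp5 had no TATAAA and 3 GGGCGG. GC content was 64.0% for Aqp3 and 79.7% for Aqp5, against a median of 52.7% over all windows, so the 2 channels that shared an order of levels differed in these letters.

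The beta subunits of the sodium pump carry the catalytic alpha subunit to the membrane, and a cell needs at least one of them. Atp1b1, the beta 1 subunit, had 36 UMIs in basal cells, 399 in LP cells and 554 in ML cells, which is 13.6 (9.51 to 18.8), 184.8 (167.2 to 203.9) and 134.0 (123.1 to 145.7) CPM. It was found in 2.34% of cells of the basal class, in 31.5% of LP cells and in 32.2% of ML cells, and after thinning in 1.47% (0.871 to 2.31), 15.6% (13.0 to 18.4) and 12.4% (10.5 to 14.5). Both luminal classes stood well above basal cells, LP cells were highest by level, and the thinned shares of LP and ML cells overlapped.

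Atp1b3, the beta 3 subunit, had 305 UMIs in basal cells, 105 in LP cells and 225 in ML cells, or 115.0 (102.5 to 128.7), 48.6 (39.8 to 58.9) and 54.4 (47.6 to 62.0) CPM. The thinned shares of cells were 11.1% (9.37 to 13.0), 4.55% (3.15 to 6.33) and 5.22% (3.99 to 6.70). Basal cells were thus highest by both measures, and the 2 luminal classes could not be separated at this depth. Of the UMIs of both beta genes, Atp1b1 gave 10.6% (7.50 to 14.3) in basal cells, 79.2% (75.4 to 82.6) in LP cells and 71.1% (67.8 to 74.3) in ML cells. In the sorted basal library it gave 12.1% (8.71 to 16.2), close to the basal cells of the total epithelium. These proportions compare classes and do not give the protein ratio, since the 2 mRNAs may be captured unequally.

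The promoters of the 2 beta genes are shown because their class order was opposite. Atp1b1 lies on chromosome 1 at 164437109 to 164458355 on the minus strand, with its window at chr1:164458306-164458605, and its 3' end overlaps Nme7 on the other strand. Atp1b3 lies on chromosome 9 at 96332655 to 96364442, also on the minus strand, with the first of its 2 RefSeq windows at chr9:96364382-96364681. Capitals mark the same letters as above.
Atp1b1: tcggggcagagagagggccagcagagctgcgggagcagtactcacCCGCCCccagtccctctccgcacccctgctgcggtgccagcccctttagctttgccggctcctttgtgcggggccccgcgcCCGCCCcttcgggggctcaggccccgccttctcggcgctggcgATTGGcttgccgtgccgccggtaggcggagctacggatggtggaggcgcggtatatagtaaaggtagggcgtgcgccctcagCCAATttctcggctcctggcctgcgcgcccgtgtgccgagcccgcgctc
Atp1b3: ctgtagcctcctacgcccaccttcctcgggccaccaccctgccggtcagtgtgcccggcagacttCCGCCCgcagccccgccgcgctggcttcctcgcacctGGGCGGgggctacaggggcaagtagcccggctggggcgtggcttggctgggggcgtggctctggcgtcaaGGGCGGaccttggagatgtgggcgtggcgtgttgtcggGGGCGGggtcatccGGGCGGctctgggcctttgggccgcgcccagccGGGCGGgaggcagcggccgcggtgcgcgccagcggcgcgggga
Atp1b1 had 2 GGGCGG and 2 CCAAT, the latter found in 37.4% of all windows. Atp1b3 had 6 GGGCGG and no CCAAT in this window, and neither had a TATAAA. The GC content was 71.0% and 76.0%. The second Atp1b3 window, at chr9:96363666-96363965, held none of the 8 motifs searched.

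FXYD proteins are small membrane proteins that tune the pump's affinity for its ions. Fxyd2, the gamma subunit best known from kidney tubules, lies on chromosome 9 at 45399669 to 45410278. It had 2 UMIs in basal cells, 41 in LP cells and 458 in ML cells, or 0.754 (0.0913 to 2.72), 19.0 (13.6 to 25.8) and 110.8 (100.9 to 121.4) CPM. Unlike Aqp5 it was found in few cells, namely 0.156% of basal cells, 2.35% of LP cells and 14.2% (12.2 to 16.4) of ML cells, and after thinning in 7.20% (5.75 to 8.88) of ML cells. None of the 97 unclassified cells had a UMI. Of its 41 LP UMIs, 25 lay in the 151 LP cells without Csn3, a level of 84.2 (54.5 to 124.4) CPM against 8.59 (4.91 to 14.0) in the 615 LP cells with Csn3.

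Fxyd3, a regulator of the same family that also occurs in stomach and colon epithelium, had 453 UMIs in basal cells, 697 in LP cells and 403 in ML cells. The levels were 170.8 (155.5 to 187.3), 322.9 (299.4 to 347.8) and 97.5 (88.2 to 107.5) CPM, none of which overlapped. LP cells were highest and ML cells lowest, and the thinned shares kept that order, with 27.2% (24.0 to 30.6) in LP, 14.1% (12.2 to 16.2) in basal and 8.37% (6.81 to 10.2) in ML cells. Of the UMIs of both FXYD genes, Fxyd3 gave 99.6% in basal cells, 94.4% (92.5 to 96.0) in LP cells and 46.8% (43.4 to 50.2) in ML cells. The 3' part of the Fxyd3 locus, on chromosome 7 at 31068172 to 31076704, overlaps Lgi4 on the other strand.

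Scnn1a, on chromosome 6 at 125320659 to 125344943, encodes the alpha subunit that the epithelial sodium channel needs to conduct, and it was sparse. It had 4 UMIs in basal cells, 11 in LP cells and 98 in ML cells, or 1.51 (0.411 to 3.86), 5.10 (2.54 to 9.12) and 23.7 (19.3 to 28.9) CPM. ML cells stood above both other classes, whereas basal and LP cells overlapped. The beta subunit Scnn1b was placed differently, with 5.66 (3.17 to 9.33), 172.3 (155.3 to 190.8) and 49.8 (43.3 to 57.1) CPM in basal, LP and ML cells. Scnn1a accordingly gave 2.87% (1.44 to 5.08) of the UMIs of both subunits in LP cells and 32.2% (27.0 to 37.8) in ML cells.

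Cftr, the cyclic AMP-gated chloride channel of secretory epithelia, had 0 UMIs in all 3302 total epithelial and all 4771 sorted basal cells. The Poisson upper limits were 1.39 CPM in basal, 1.71 in LP, 0.893 in ML and 1.48 in sorted basal cells. Cftr mRNA, from chromosome 6 at 18170687 to 18322768, was therefore not detectable at this depth, which is not evidence that the cells lack it.

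Between classes, a gene was counted as higher when its level differed by 2-fold or more and the 2 classes together held 20 or more UMIs. In LP against basal cells 7 of the 9 genes had enough UMIs. Of these, 5 were higher in LP cells, where 12.3% of all genes were, and 1 was higher in basal cells, where 22.3% of all genes were. Fxyd2 was 25.2-fold (6.54 to 214.9), Aqp5 19.6-fold (14.6 to 27.1), Atp1b1 13.6-fold (9.67 to 19.7), Aqp3 4.04-fold (2.18 to 7.95) and Aqp1 3.51-fold (1.43 to 9.83) higher in LP cells. Fxyd2 fell under the 20 UMIs required, and so lost its call, when LP cells were restricted by the LP and fibroblast markers and when cells were thinned to 1000 UMIs. Aqp1 also lost its call when cells were thinned to 1000 UMIs. Atp1b3 was 2.36-fold (1.89 to 2.98) higher in basal cells, and Fxyd3 was 1.89-fold (1.68 to 2.13) higher in LP cells, just short of 2-fold. The median log2 ratio of the 7 genes was 2.01 and that of all genes -0.22. Under median-of-ratios scaling, which moved the median of all genes to -0.02, Fxyd3 passed 2-fold with a log2 ratio of 1.11 (and 1.08 on cells thinned to 1000 UMIs), and the calls over all genes went from 1180 higher in LP and 2143 higher in basal cells to 1442 and 1743.

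The Aqp5 and Fxyd2 ratios to basal cells rested on few basal cells. Of the 46 basal Aqp5 UMIs, most lay in the deeper cells of the class, whose cells above the median depth had 23.7 CPM and those below it 4.55, and 3 cells held 5 to 9 UMIs each. Leaving out the deepest 5% of cells in each class raised the LP to basal log2 ratio of Aqp5 from 4.30 to 5.40. Assigning the 26 cells that met both rules to the basal class lowered it to 2.91, since those cells had 642.9 (509.8 to 800.2) CPM of Aqp5, and lowered that of Fxyd2 from 4.65 to 2.40. The 26 cells had a median of 4609 UMIs, and whether they were pairs of cells in 1 droplet was not tested.

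In ML against LP cells 8 genes had enough UMIs, 4 of which were higher in ML cells, against 17.9% of all genes, and 2 in LP cells, against 10.5%. Fxyd2 was 5.83-fold (4.23 to 8.24), Scnn1a 4.65-fold (2.49 to 9.63), Aqp5 3.41-fold (3.15 to 3.69) and Aqp3 2.93-fold (2.13 to 4.10) higher in ML cells. Aqp1 was 5.47-fold (2.22 to 15.3) and Fxyd3 3.31-fold (2.93 to 3.75) higher in LP cells, and Aqp1 lost its call when cells were thinned to 1000 UMIs. The pump beta genes differed little, with Atp1b1 1.38-fold (1.21 to 1.57) higher in LP cells and Atp1b3 at an ML to LP ratio of 1.12 (0.884 to 1.43), whose direction turned under median-of-ratios scaling (log2 -0.06). The median log2 ratio was 0.86 over the 8 genes and 0.29 over all genes. Median-of-ratios scaling moved the latter to 0.07 and changed the calls over all genes from 1737 higher in ML and 1021 higher in LP cells to 1268 and 1263, while the 4 and 2 members past 2-fold kept those counts.

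This comparison turned partly on where the ML threshold was set. With all thresholds of the split doubled, which left 910 ML and 987 LP cells, the ML to LP log2 ratio of Scnn1a fell from 2.22 to 0.46 and that of Fxyd2 from 2.55 to 1.28. With LP cells restricted to the 667 that had 3 or more UMIs of the LP markers and under 3 of the fibroblast markers, the Fxyd2 ratio was 3.68 and that of Aqp5 1.95. The direction was the same for each of these genes under both settings, but Scnn1a fell under 2-fold and lost its call with the thresholds doubled. Leaving out cells with 3 or more UMIs of Col1a1, Col1a2 and Col3a1, the fibroblast collagens, left 1121 ML cells and an Aqp5 log2 ratio of 1.78, against 1.77 with them.

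In ML against basal cells 7 genes had enough UMIs, 5 higher in ML cells against 19.6% of all genes, and 1 higher in basal cells against 20.3%. Fxyd2 was 146.9-fold (40.4 to 1217) higher, on only 2 basal UMIs, and Aqp5 was 66.9-fold (50.1 to 91.5) higher. Scnn1a was 15.7-fold (5.95 to 58.8), Aqp3 11.8-fold (6.92 to 21.9) and Atp1b1 9.87-fold (7.05 to 14.3) higher. Atp1b3 was 2.11-fold (1.77 to 2.52) higher in basal cells and Fxyd3 1.75-fold (1.53 to 2.01). The 3 comparisons share their classes and are not independent of each other.

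**Figure D2:**
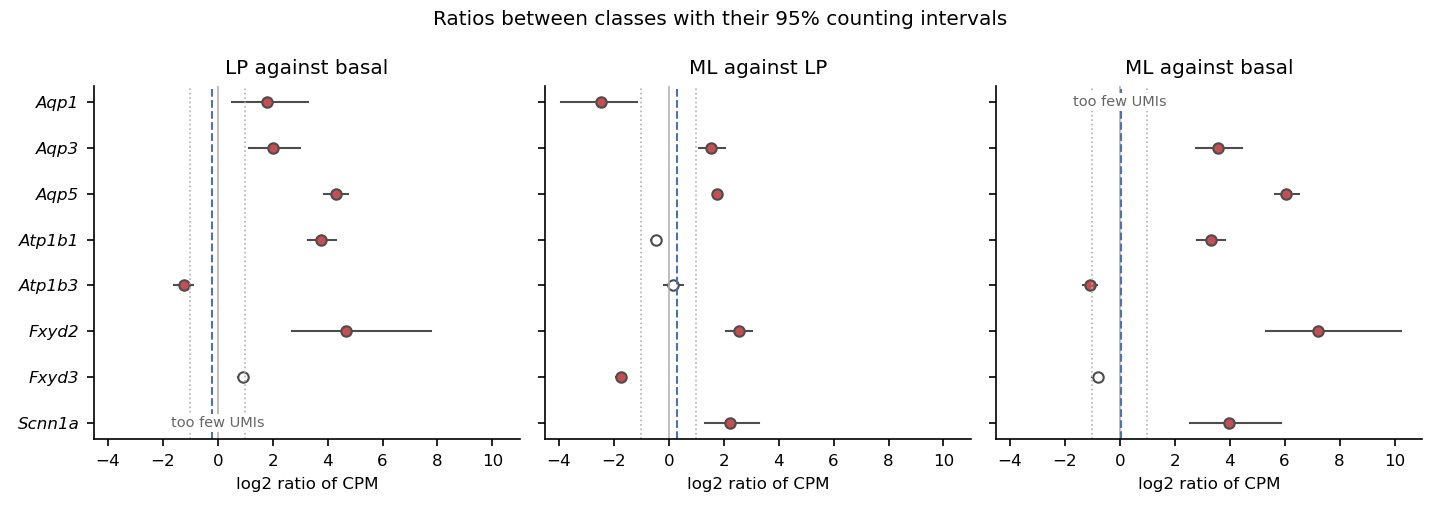
Log2 ratios of CPM between classes, with exact 95% counting intervals; filled red points are 2-fold or more, open points are less, dotted lines mark 2-fold and the dashed blue line is the median of all genes. Fxyd2 and Aqp5 lie far to the right in both comparisons with basal cells, Atp1b3 lies to the left, and Fxyd3 changes side, from 0.92 in LP against basal to -1.73 in ML against LP.

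The sorted basal library gave a second look at the basal levels, although sort, capture and depth cannot be told apart between the libraries. Of 6 genes with enough UMIs 1 was higher in the sorted library, against 29.1% of all genes, and 1 was higher in basal cells of the total epithelium, against 15.4%. Aqp5 was 3.60-fold (1.88 to 7.46) lower in the sorted library, with 12 UMIs in 7 cells and a level of 4.82 (2.49 to 8.42) CPM. Aqp1 was 3.81-fold (1.60 to 10.4) higher there, with 25 UMIs in 10 cells and a level of 10.05 (6.50 to 14.8) CPM. That interval overlapped the Aqp1 interval of LP cells, 9.27 (5.66 to 14.3) CPM, so LP cells were above only the basal cells of the total epithelium. The endothelial markers were at 34.2 CPM in the sorted library and 4.53 in basal cells. The part of endothelial RNA in the Aqp1 difference was not tested. Restricted to the sorted cells that met the basal rule, the Aqp5 log2 ratio was -2.79, and Aqp1 fell under the 20 UMIs required.

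The other genes with enough UMIs stayed within 2-fold. Atp1b3 had 110.9 (98.2 to 124.8) CPM in the sorted library, a ratio of 0.964 (0.816 to 1.14) to basal cells of the total epithelium. Fxyd3 had 141.8 (127.4 to 157.4), a ratio of 0.830 (0.720 to 0.956), and Atp1b1 had 15.3 (10.8 to 21.0), a ratio of 1.13 (0.694 to 1.83). Thinned to 400 UMIs, which left out the shallower cells and kept 3177 of the 4771 sorted cells and all 1280 basal cells, Atp1b3 was found in 3.43% (2.83 to 4.12) of the sorted cells kept and 3.98% (2.98 to 5.21) of basal cells, and Fxyd3 in 5.35% (4.59 to 6.19) and 7.11% (5.76 to 8.66). Fxyd2 had 1 UMI in the whole sorted library, and Aqp3 (12 UMIs) and Scnn1a (11 UMIs) stayed under 5 CPM.

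Cells of 1 class did not carry the genes evenly. In ML cells Aqp5 was at 0 in 238 cells, at 1 in 212, at 2 to 4 in 343, at 5 to 9 in 201 and at 10 or more in 139, with 61 UMIs in the richest cell. The top 10% of ML cells held 42.6% of the Aqp5 UMIs, and after thinning to 1000 UMIs its variance was 2.80 times its mean, against 1.5 in LP cells. At the same relative spread between cells this ratio rises with the level, which was lower in LP cells. The values therefore do not show that Aqp5 was more uneven in ML than in LP cells. Shallower ML cells were not lower, with 1400 CPM of Aqp5 in cells below the median depth and 1045 in those above it. Aqp5 in ML cells was thus graded, from no UMI to 61 in a cell.

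Fxyd2 was spread differently, with 972 of 1133 ML cells at 0 and a mean of 2.85 UMIs in the 161 cells that had any. The top 10% of ML cells held 89.7% of its UMIs, 5 cells had 10 or more, and its variance after thinning was 1.82 times the mean. By comparison the variance to mean ratios in the same cells were 1.77 for Aqp3, 1.19 for Atp1b1, 1.19 for Atp1b3, 0.996 for Fxyd3 and 0.982 for Scnn1a, and a ratio of 1 is what counting alone gives. Aqp5, Fxyd2 and Aqp3 were therefore the members with the highest ratios in ML cells. Because the ratio also rises with the level, it does not rank members of unlike level by relative unevenness, and sparse genes such as Scnn1a stay near 1. At similar ML levels the ratios still differed. Fxyd2 (110.8 CPM) was above Fxyd3 (97.5 CPM) and Atp1b1 (134.0 CPM), and Aqp3 (62.4 CPM) was above Atp1b3 (54.4 CPM).

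**Figure D3:**
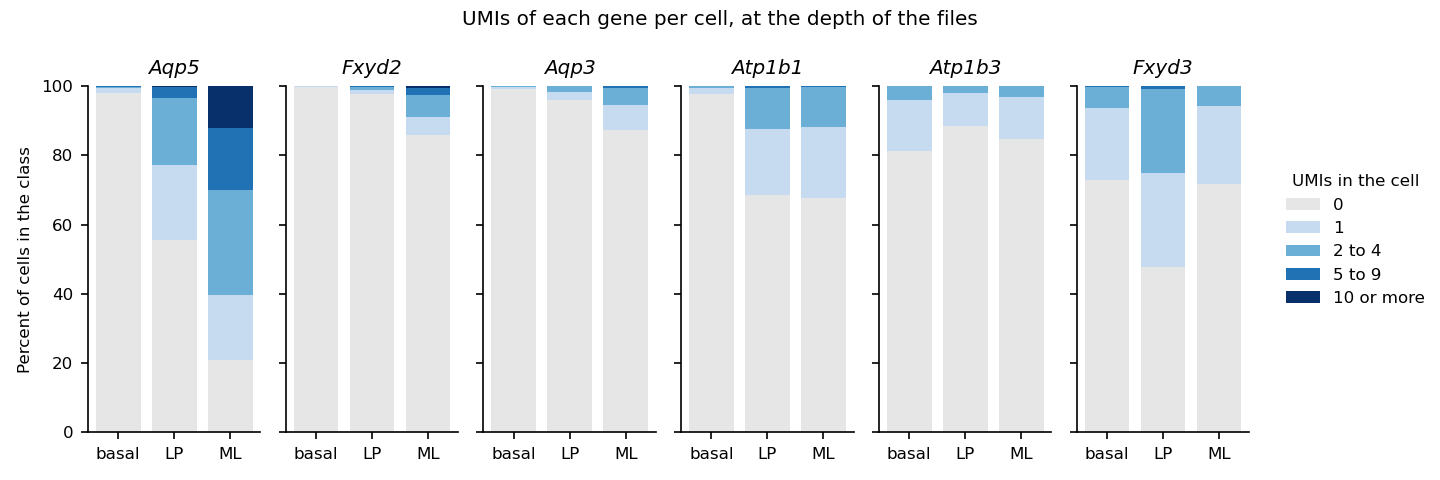
Percent of basal, LP and ML cells with 0, 1, 2 to 4, 5 to 9 and 10 or more UMIs of 6 genes, at the depth of the files, so that ML cells (median 3403 UMIs) are deeper than basal cells (median 1820). Aqp5 reaches 10 or more UMIs in 12.3% of ML cells, Fxyd2 is at 0 in 972 of 1133 ML cells, and Fxyd3 is found most often in LP cells.

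Splitting ML cells by Fxyd2 itself described the company it kept. The 161 ML cells with Fxyd2 and the 972 without had similar depth, with medians of 3222 and 3430 UMIs. Cells with Fxyd2 had less Aqp3, at 22.1 (11.8 to 37.8) against 69.1 (60.7 to 78.3) CPM, and less Aqp5, at 863.1 (789.6 to 941.6) against 1210 (1174 to 1247). They had more Scnn1b, at 115.8 (89.9 to 146.7) against 38.9 (32.7 to 46.0), and more Atp1b1, at 177.0 (144.7 to 214.5) against 126.9 (115.5 to 139.2). Fxyd2-bearing ML cells were in these 4 genes a different mixture from the other ML cells, although the cells were all from 1 library.

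Other divisions of the luminal classes moved the genes less evenly. The 138 ML cells that also had 10 or more UMIs of the LP markers had 642.7 (587.1 to 702.0) CPM of Aqp5 against 1279 (1241 to 1318) in the 995 other ML cells. Their Fxyd3 level was 171.1 (143.1 to 203.0) against 80.8 (71.5 to 91.0), and their Fxyd2 level 57.5 (41.8 to 77.2) against 122.9 (111.4 to 135.4). Each of these values lay between those of the LP class and the other ML cells, and the joint cells were deeper, with a median of 5462 UMIs against 3211. Scnn1a and Aqp1 also lay between, but with intervals that overlapped those of the other ML cells. Atp1b1, at 117.6 (94.5 to 144.5) against 137.8 (125.5 to 150.9), did not lie between. Nor did Aqp3, at 65.3 (48.5 to 86.1) against 61.8 (53.7 to 70.8), or Atp1b3, at 56.2 (40.7 to 75.7) against 54.1 (46.5 to 62.5). By contrast ML cells with and without a UMI of Ly6a, a surface antigen gene, were close in Aqp5, at 1126 (1083 to 1171) and 1203 (1154 to 1253), and in Fxyd2, at 107.2 (94.1 to 121.6) and 115.2 (100.3 to 131.6).

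Within LP cells the 615 with Csn3 and the 151 without had nearly equal Atp1b1 levels, 184.8 (165.8 to 205.4) and 185.3 (139.6 to 241.2) CPM. The cells without Csn3 had more Aqp5, at 525.6 (446.4 to 614.9) against 311.0 (286.2 to 337.4), and more Slc12a2, at 219.0 (169.0 to 279.2) against 19.9 (14.0 to 27.4). They also had less Scnn1b, at 50.5 (28.3 to 83.4) against 191.8 (172.4 to 212.7). In these 3 genes and in Fxyd2 they lay on the ML side of the other LP cells. LP cells with a UMI of Kit, the stem cell factor receptor, had 238.6 (187.7 to 299.1) CPM of Aqp5 against 357.9 (331.1 to 386.3) in those without. Splits by a UMI also sort by depth, with medians of 2694 UMIs with Csn3 and 1610 without, and 3214 with Kit and 2400 without. Aqp5 was at 417 CPM in LP cells below the median depth and at 308.4 in those above it. The part of depth in these differences was not tested.

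The genes most like each member over all 3302 cells were found by Pearson correlation of ln(1 + UMIs per 10000), a description in which cells share a library and differ in depth and class. Aqp5 was most like Ly6d (r = 0.62), Tmed3 (0.60) and Krt7 (0.59), and within the 1133 ML cells most like Tmed3 (0.32), Ly6d (0.27) and Cxcl15 (0.22). Fxyd2 was most like Capsl (0.37), Bmp3 (0.34) and Tspan1 (0.31), and within ML cells Tmsb4x (0.31), Capsl (0.30) and Bmp3 (0.30) led. Both genes therefore kept 2 of their 3 nearest genes inside the ML class.

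Atp1b1 was most like the tight junction genes Cldn3 (0.32), Cldn7 (0.31) and Cldn4 (0.28) over all cells, but none of its 3 nearest genes within LP cells was a claudin and the highest r there was 0.17. Fxyd3 was most like the LP genes Trf (0.29), Csn3 (0.28) and Cd14 (0.28), and within LP cells Trf again led at 0.22. For Aqp3, Atp1b3 and Scnn1a the highest r over all cells was 0.19, 0.12 and 0.16, which in counts this sparse is no finding, and Aqp1 and Cftr had too few cells with a UMI. Members themselves were weakly correlated with each other, at most with r = 0.17, for Aqp5 and Atp1b1.

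Other genes of the pathway were taken from 4 fixed lists with 56 genes in all. None of the 8 other aquaporins reached 20 UMIs in any pair of classes. Of 11 other sodium pump genes 3 had enough UMIs in LP against basal cells, with 1 higher in basal cells and 0 in LP cells. Atp1b2, the third beta gene, had 10.9 (7.32 to 15.7) CPM in basal cells but 0.927 (0.112 to 3.35) in LP and 0.968 (0.264 to 2.48) in ML cells. Between classes, Atp1b2 and Atp1b3 were thus higher in basal cells and Atp1b1 in luminal cells.

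Genes of sodium entry and its control were mostly luminal. Of 13, 11 had enough UMIs in LP against basal cells, 7 of them higher in LP cells (12.3% of all genes) and 0 in basal cells (22.3%), with a median log2 ratio of 1.93 against -0.22 over all genes. Scnn1b was 30.5-fold (18.2 to 55) higher in LP cells, Prss8, a protease that activates the channel, 8.24-fold (4.93 to 14.6), and St14, a protease acting with it, 5.13-fold (4.08 to 6.50). In ML against LP cells 0 of 10 were higher in ML cells (17.9% of all genes) and 1, Scnn1b, was 3.46-fold higher in LP cells (10.5%). Scnn1a was thus the one channel subunit above 2-fold in ML cells, a call it lost with the thresholds of the split doubled.

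Genes of chloride and potassium transport formed the last list. Of 24, 14 had enough UMIs in LP against basal cells, 8 higher in LP cells (12.3% of all genes) and 3 in basal cells (22.3%). In ML against LP cells 1 of 13 was higher in ML cells (17.9% of all genes), 4 in LP cells (10.5%) and 8 passed in neither direction, with a median log2 ratio of 0.26 against 0.29 over all genes. The 1 higher in ML cells was Slc12a2, the sodium-potassium-chloride cotransporter that loads chloride into secretory cells, at 7.33-fold (6.0 to 9.05). The 4 higher in LP cells were Clic6, an intracellular chloride channel gene, at 13.8-fold, the potassium channels Kcnk5 at 11.7-fold and Kcnn4 at 9.18-fold, and the kinase gene Stk39, whose product activates that cotransporter, at 6.31-fold. The ML counts of these channels came largely from the 138 ML cells with 10 or more LP marker UMIs, which held 52 of 53 Kcnn4 UMIs, 84 of 97 Clic6 UMIs and 32 of 42 Kcnk5 UMIs, and in the 995 other ML cells the levels were 0.297, 3.86 and 2.97 CPM. The excess of Slc12a2 in LP over basal cells lay in the LP cells without Csn3, which held 65 of its 102 LP UMIs, while LP cells with Csn3 were at 19.9 CPM and basal cells at 21.9. By these ratios between ML and LP cells, ML cells had more Slc12a2, Aqp5, Aqp3, Fxyd2 and Scnn1a, and LP cells had more Clic6, Kcnn4, Kcnk5, Scnn1b and Fxyd3.

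**Figure D4:**
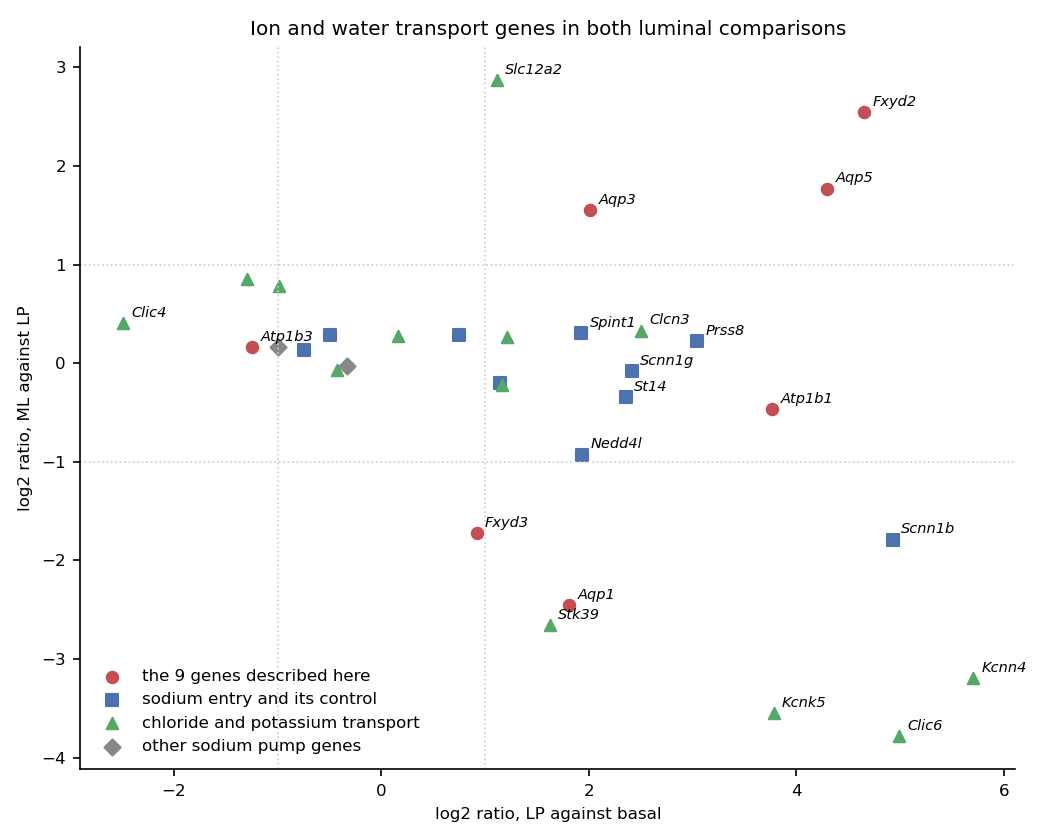
Log2 ratio in LP against basal cells (horizontal) and in ML against LP cells (vertical) for the members and the listed transport genes with 20 or more UMIs in both comparisons; dotted lines mark 2-fold. Aqp3, Aqp5, Fxyd2 and Slc12a2 lie in the upper right, past 2-fold in both (Slc12a2 in LP against basal cells through the LP cells without Csn3), whereas Clic6, Kcnn4, Kcnk5 and Scnn1b lie in the lower right, highest in LP cells.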

How the data were processed

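Single cells were captured with the 10X Genomics Chromium 3' protocol, and the deposited counts are whole UMI counts per gene and cell, made by the authors with Cell Ranger (version 1.2.1 per the submitters' processing notes, though the methods name a later one) on mm10. The barcodes equal the cell numbers in the labels, and 28 barcode sequences occur in both libraries. No cell was removed, except that thinning left out cells shallower than its target, and no doublet caller was run. UMIs were summed per class, divided by the class total and multiplied by 1000000. Ratios carry exact conditional binomial 95% intervals. The 9 genes of the split were left out of the counts over all genes. Thinning drew UMIs at random with a fixed seed. Fold calls were tried on simulated Poisson counts of well-counted genes without spread between cells, which does not cover the sparse members. Members, lists and comparisons were chosen with earlier results of these data known. All 9 members are named, list genes by UMIs (100 or more) and ratio, and like genes by the 3 highest correlations. Promoters came from RefSeq (GRCm38.p6), with 7 of 9 members matched in 8 windows, and 8 motifs were searched on both strands: the TATA box TATAAA, the GC box GGGCGG, the CCAAT box, the GATA-type AGATAA (11.2% of all windows), the forkhead-type TGTTTAC (3.65%), the ETS-type AGGAAG (35.4%), and the nuclear receptor sites TGACCT (16.3%) and AGAACA (19.0%). Python 3.11.15, numpy 2.4.6, scipy 1.17.1 and pandas 2.3.3 were used.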

Additional observations from a re-analysis of the deposited data

How the results depend on the processing

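Across 15 alternative settings 242 member ratios were recomputed, of which 219 stayed inside their counting interval, 23 moved out of it and 0 changed sign after being called. Settings that changed only the fold or the UMI filter leave ratios as they are and gave none of the 242. Some of the 219 could not move, since a setting that changed 1 class left the ratio of the other classes as it was. Ratios that fell under the 20 UMIs required were not counted. In LP against basal cells 6 members were past 2-fold, and 3 when 100 or more UMIs were required, a filter that removes sparse genes by construction. In ML against LP cells 6 were, and 5 with the thresholds of the split doubled, where Scnn1a lost its call. In sorted basal against basal cells the count went from 2 to 1 when only sorted cells that met the basal rule were used. Thinning to 1000 UMIs per cell, without the shallower cells, left 5 members past 2-fold in LP against basal cells and raised the Aqp5 log2 ratio to 5.24. The share of all genes past the fold was 53.8% in LP against basal and 49.9% in ML against LP cells at a fold of 1.5, and 42.7% in ML against LP cells with no filter on UMIs. Leaving out cells with 3 or more collagen UMIs, chosen after seeing the data, kept 6 members past 2-fold in each of the 3 class comparisons. The causes were not tested. No paired analysis was possible because each sort was 1 library with no replicate number. Depth limits the basal levels of Aqp1, Fxyd2 and Scnn1a, which rest on 2 to 7 UMIs.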
